A study of Mus musculus with 8 samples.

Results

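Cxcl1, Cxcl2, Cxcl3 and Cxcl5 encode small secreted proteins that draw neutrophils out of the blood, and Cxcr2 encodes the receptor through which neutrophils follow them. The 5 genes were identified by their symbols in the array annotation, keeping probe sets that name 1 gene only. They had 7 of the 45101 probe sets on the array, and they are 5 of the 18193 genes that had such a probe set. Each gene was read from its brightest probe set, and the 2 remaining probe sets of Cxcl1 served as a check.

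The tumours came from B16F1, an established mouse melanoma cell line with intact TNF receptor genes, whose cells were placed under the skin of the right hind limb. The wild-type hosts (WT) were C57BL/6-NCr mice. The other hosts (TNFR KO) carried disrupted alleles of both TNF receptor genes, Tnfrsf1a[tm1Imx] and Tnfrsf1b[tm1Imx], in all cells of the host but not of the tumour line, and came from B6;129S breeding stock. Both hosts were 8 to 12 weeks old, with 5 to 7 mice each, and tumours had reached 268 to 478 cubic mm. In each host, 1 group was left untreated and 1 received a single dose of 20 Gy of X-rays to the limb, with tumours removed 5 h after treatment. The total RNA of the tumours of a group was combined, giving 4 pools, and each pool was run on 2 arrays, so n = 2 technical duplicates in every mean ± SD. The series asks how a host that cannot respond to TNF changes the expression programme of the tumour and its response to radiation.

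Values are MAS5 signals on a linear scale, with the 2%-trimmed mean set to 500 on every array. Differences are on the log2(signal + 16) scale with limma's standard error (SE). Fold values given for a gene are ratios of its mean signals without the added 16, so they differ somewhat from the log2 differences. The 2-fold threshold applies to the log2 differences. A gene was tested if its mean over the 8 arrays reached the median probe set, a signal of 68.8, and 11345 genes were. Effects of host or radiation over both levels of the other were fitted on the 4 pools and called at a Benjamini-Hochberg adjusted p under 0.05. Comparisons of 1 pool with another, and the test of whether radiation acted differently in the 2 hosts, were fitted on the 8 arrays and had also to reach 2-fold. Their p-values measure the noise of duplicate arrays and hold no spread between mice or pools.

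All 8 melanocyte genes listed passed the filter, with a summed signal of 160620 to 197460 over the 8 arrays, as the tumour label would have it. The targeted Tnfrsf1a was read in every pool, at 2702 in WT untreated, 3874 in WT irradiated, 3409 in TNFR KO untreated and 4196 in TNFR KO irradiated tumours. Tnfrsf1b was read at 191 and 416 in the WT pools and at 127 and 128 in the TNFR KO pools, and where its probe sets lie relative to the disrupted part was not analysed here. Duplicates correlated at 0.975 to 0.981 across probe sets, and different pools at 0.955 to 0.972. RNA controls spiked in before labelling had a mean signal of 5311 to 10130 on the WT arrays and 12 to 20.8 on the TNFR KO arrays, whereas the hybridisation controls overlapped between hosts (3650 to 4904 and 3824 to 4417). Within WT hosts each of the 4 spike-ins was higher on the irradiated than on the untreated arrays, ThrX for example at 7508 to 7670 against 3627 to 3632, and so was the hybridisation control CreX, at 16501 to 16657 against 12393 to 13003. The signal of 18S ribosomal RNA was 284 to 301 in WT untreated, 335 to 345 in WT irradiated, 511 to 547 in TNFR KO untreated and 932 to 956 in TNFR KO irradiated tumours. Wherever hosts are compared, genotype, strain background and the preparation of the labelled target cannot be told apart, and with 1 pool per group neither can radiation and preparation.

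Neutrophils sense chemokines of the ELR group of the CXC family, named for a short motif before the first cysteines, through the G-protein-coupled receptor CXCR2. Macrophages, fibroblasts, endothelial cells and many tumour cells make these ligands when TNF, interleukin-1 or bacterial products activate NF-kB, and their short-lived transcripts are also controlled by RNA-binding proteins. Mouse Cxcl1, Cxcl2 and Cxcl3 were first known as KC, MIP-2 and DCIP-1, and Cxcl5 as LIX.

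The ligand genes are neighbours. In the RefSeq gene table the protein-coding genes of this stretch of chromosome 5 followed in the order Cxcl5, Ppbp, Pf4, Cxcl3, Cxcl15, Cxcl1 and Cxcl2, while Cxcr2 lies on chromosome 1. The promoters of the 3 ligands that carry the results are given here because they share a stretch of sequence. Each is the 250 bases before the annotated start, on the + strand of GRCm38.p6, from RefSeq. Capitals mark the bases that match the NF-kB consensus on either strand.
Cxcl1, chr5:90890995-90891244: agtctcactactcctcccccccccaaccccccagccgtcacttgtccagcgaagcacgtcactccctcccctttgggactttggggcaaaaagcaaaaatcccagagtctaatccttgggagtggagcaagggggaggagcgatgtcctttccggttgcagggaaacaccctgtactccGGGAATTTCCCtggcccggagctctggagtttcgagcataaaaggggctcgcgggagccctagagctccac
Cxcl2, chr5:90903649-90903898: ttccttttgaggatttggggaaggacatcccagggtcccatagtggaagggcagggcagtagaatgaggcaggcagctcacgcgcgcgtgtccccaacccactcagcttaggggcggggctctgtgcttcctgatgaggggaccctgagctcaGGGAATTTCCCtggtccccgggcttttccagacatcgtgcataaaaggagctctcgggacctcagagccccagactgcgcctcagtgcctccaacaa
Cxcl3, chr5:90785851-90786100: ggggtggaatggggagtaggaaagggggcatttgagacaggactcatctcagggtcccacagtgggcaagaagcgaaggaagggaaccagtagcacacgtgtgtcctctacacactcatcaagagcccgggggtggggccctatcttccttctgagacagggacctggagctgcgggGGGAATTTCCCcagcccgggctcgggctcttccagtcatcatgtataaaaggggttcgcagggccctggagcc

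The same 10 bases, GGGAATTTCC, stood 71 to 62 bases before the start of Cxcl1, 97 to 88 before that of Cxcl2 and 73 to 64 before that of Cxcl3. In all 3 the 11 bases in capitals hold 2 overlapping matches to the consensus, 1 on each strand. A TATA-like ATAAAA followed, from 34, 57 and 29 bases before the start. Across 32851 promoter windows of this length, 7.25% held the NF-kB consensus and 0.0852% held GGGAATTTCC on either strand, and 10.2% held ATAAAA on the strand of the gene. The window of Cxcr2 held no match to the consensus, and that of Cxcl5 was not analysed here. The AP-1 motif TGANTCA, present in 6.75% of windows, was in none of the 4 members' windows. These are matches of letters and carry no measurement of binding.

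Cxcl2 was the ligand with the widest gap between hosts. Its signal was 1860 and 1699 on the 2 WT untreated arrays and 6494 and 6493 on the 2 WT irradiated arrays. In TNFR KO tumours it was 284 and 304 without radiation (294 ± 14.4) and 281 and 308 after it (294.4 ± 19.1). Both WT pools thus lay above every TNFR KO array, the WT irradiated pair lay far above the WT untreated pair, and the 2 TNFR KO pools overlapped. In WT hosts Cxcl2 rose 3.65-fold after radiation (1.86 ± 0.08 SE, adjusted p = 0.000235), the 25th highest of the 11345 differences. Its TNFR KO pools did not differ detectably (0.00 ± 0.08, adjusted p = 0.998). The level in TNFR KO hosts was 6.05-fold lower than in WT without radiation (-2.53 ± 0.08, adjusted p = 0.000113) and 22.1-fold lower after it (-4.39 ± 0.08, adjusted p = 7.88e-06).

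Cxcl3 followed the same order of pools. Its signals were 582 and 518 in WT untreated tumours (550 ± 44.6), 2633 and 3534 in WT irradiated tumours (3083 ± 636), 118 and 122 in TNFR KO untreated tumours and 135 and 183 in TNFR KO irradiated tumours (159 ± 34.0). No 2 pools overlapped, and the irradiated pools of both hosts were the more variable. Radiation raised it 5.61-fold in WT hosts (2.44 ± 0.18, adjusted p = 0.00118), the 8th highest difference of all genes tested. In TNFR KO hosts both irradiated arrays were above both untreated arrays, but the difference of 0.36 ± 0.18 did not pass the test (adjusted p = 0.204). Between hosts Cxcl3 was lower in TNFR KO tumours by 4.59-fold untreated (-2.06 ± 0.18, adjusted p = 0.000425) and by 19.4-fold irradiated (-4.14 ± 0.18, adjusted p = 7.95e-05).

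Cxcl1 was ordered differently before treatment. At its brightest probe set, 1441855_x_at, the signals were 307 and 392 in WT untreated tumours (349 ± 60.4), 836 and 928 in WT irradiated tumours (882 ± 65.2), 568 and 590 in TNFR KO untreated tumours (578.5 ± 15.6) and 507 and 558 in TNFR KO irradiated tumours (533 ± 36.1). The WT irradiated arrays were the highest, the WT untreated arrays the lowest, and both TNFR KO pools lay between them, the irradiated just below the untreated with no overlap. Cxcl1 rose 2.52-fold after radiation in WT hosts (1.30 ± 0.12, adjusted p = 0.0023), and the TNFR KO difference was -0.12 ± 0.12 (adjusted p = 0.529). Untreated TNFR KO tumours were 1.66-fold above WT (0.71 ± 0.12, adjusted p = 0.00502) and irradiated ones 1.66-fold below WT (-0.71 ± 0.12, adjusted p = 0.00445). Both host differences passed the p threshold and missed the 2-fold threshold, and over both treatments they came to 0.00 ± 0.27 (adjusted p = 0.998), against -0.30 and 0.52 at the other probe sets of the gene.

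The 2 other probe sets of Cxcl1 gave the same order in WT hosts and before treatment. The probe set 1419209_at, which the annotation ties to the reference transcript of Cxcl1, read 117 and 114 in WT untreated, 383 and 439 in WT irradiated, 186 and 197 in TNFR KO untreated and 167 and 159 in TNFR KO irradiated tumours. The probe set 1457644_s_at read 169 and 114, 423 and 462, 373 and 331, and 434 and 334 in the same order. All 3 probe sets showed a rise after radiation in WT tumours (1.30, 1.70 and 1.56 on the log2 scale) and a higher signal in TNFR KO than in WT tumours before radiation (0.71, 0.66 and 1.25), each without overlap. The endings _x_at and _s_at mark probe sets that can also bind related transcripts. The 3 disagreed after radiation, where the host difference was -0.71, -1.25 and -0.21 and the arrays of the last probe set overlapped between hosts. The radiation difference in TNFR KO hosts was -0.12, -0.22 and 0.11, so its direction also depended on the probe set.

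**Figure D1:**
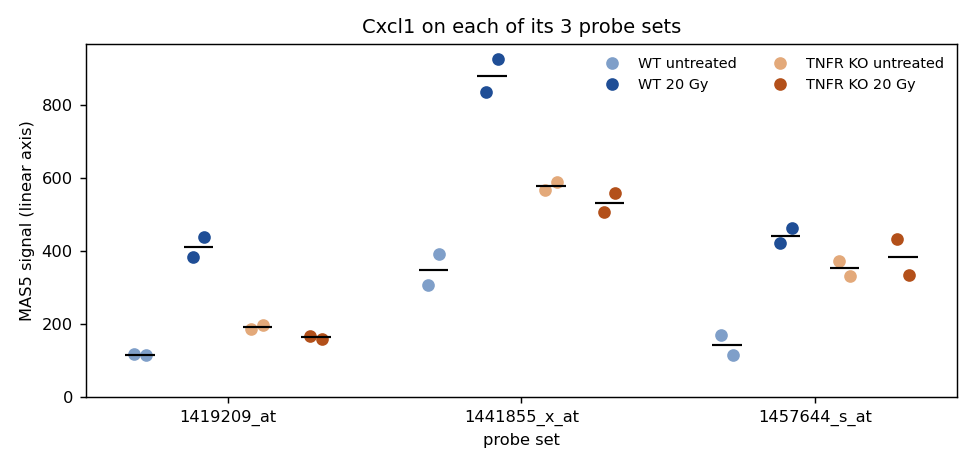
Signal of each of the 3 probe sets of Cxcl1 (vertical axis, linear scale from 0) in the 4 groups, with points for the 2 arrays of a pool and a bar for their mean. Every probe set is lowest in WT untreated tumours, higher in WT irradiated tumours and above the WT untreated level in both TNFR KO pools.

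The remaining ligand and the receptor were dim. Cxcl5 was below the tested level on every array, at 14.8 and 5 in WT untreated, 32.3 and 40.7 in WT irradiated, 7.1 and 3.3 in TNFR KO untreated and 4.4 and 1.4 in TNFR KO irradiated tumours. Cxcr2 reached 84.8 and 59.3 in WT irradiated tumours, against 13 and 14.8 in WT untreated, 12.9 and 7.3 in TNFR KO untreated and 20.2 and 28.2 in TNFR KO irradiated tumours. For both genes the WT irradiated arrays were the highest. How often this order occurs among all genes was not counted, so it is no result about these genes. Neither was tested in the main fits. In the fits over all 18193 genes without a filter, Cxcr2 was higher after radiation in WT hosts (1.54 ± 0.19, adjusted p = 0.0182) and lower in TNFR KO than in WT irradiated tumours (-1.12 ± 0.19, adjusted p = 0.0109). Cxcl5 passed there between irradiated hosts and missed the threshold for radiation in WT hosts (adjusted p = 0.0541). Its signal was under 16, the pseudocount, in every group but WT irradiated, so no size is given for it, and the sizes of Cxcr2 also depend on the pseudocount.

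**Figure D2:**
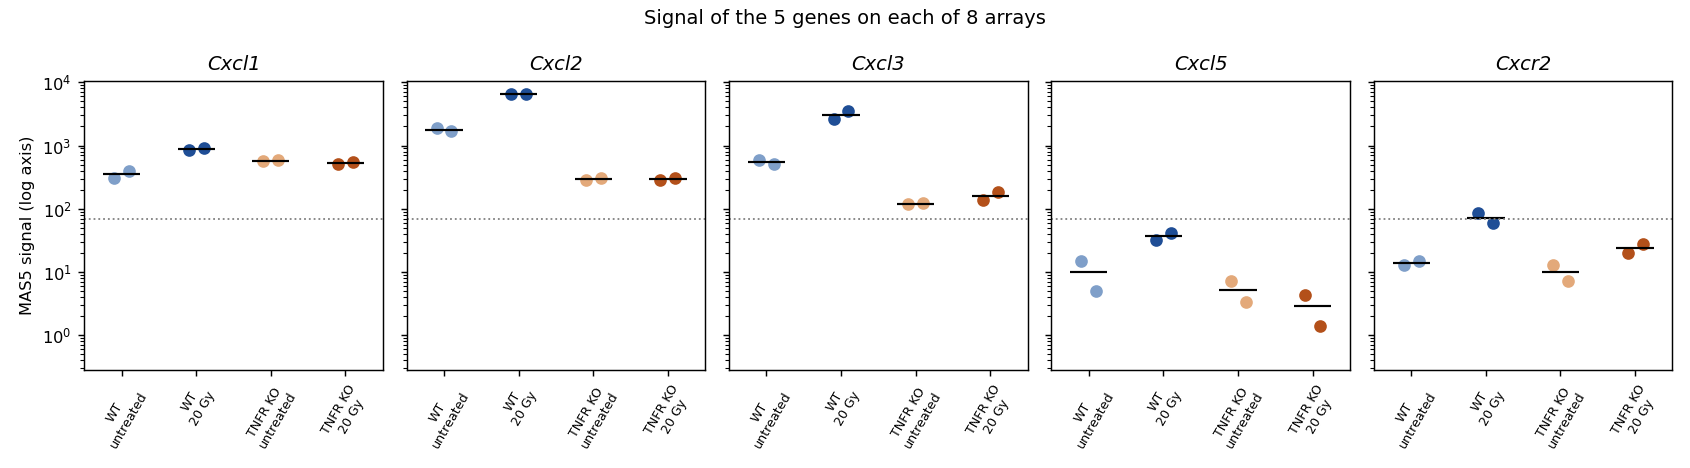
Signal of Cxcl1, Cxcl2, Cxcl3, Cxcl5 and Cxcr2 (vertical axis, log scale) on each of the 8 arrays by group, with bars for the pool means and the tested level of 68.8 as a dotted line. WT irradiated arrays are the highest for each of the 5 genes, and Cxcl5 stays under the line in every group.

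Read by comparison, radiation in WT hosts called all 3 tested members higher, where 2.25% of all tested genes were called higher and 0.203% lower (255 and 23 genes). With the arrays centred on their medians that split was 133 and 106, and the 3 members were still called. In TNFR KO hosts limma called 0 of the 3, and 0 had an unadjusted p under 0.05, against 1.37% of all tested genes called. Without radiation 2 of 3 were lower in TNFR KO tumours (Cxcl2 and Cxcl3), where 6.25% of genes were lower (234 genes higher and 709 lower, or 128 and 1109 with median-centred arrays), and the same 2 were lower after radiation, where 7.43% were. In the fits without a filter, radiation in WT hosts called 4 of 5 members higher (background 1.74%) and the irradiated hosts differed in 4 of 5, lower in TNFR KO (background 5.23%), the latter count including Cxcl5 at signals of 4.4 and 1.4 in TNFR KO tumours. All 3 tested members were above 68.8 in every pool, so none was tested only for the group where it was high.

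The difference between the 2 radiation effects was itself called for 3 of 3 members, against 2.05% of tested genes called in that direction (18 genes higher and 233 lower, or 97 and 164 with median-centred arrays). The effect in TNFR KO minus that in WT hosts was -1.86 ± 0.11 for Cxcl2 (adjusted p = 0.00172), -2.08 ± 0.26 for Cxcl3 (adjusted p = 0.0117) and -1.42 ± 0.18 for Cxcl1 (adjusted p = 0.0117). Cxcl2 alone was called when the second TNFR KO untreated array was left out, where Cxcl3 (-2.06) and Cxcl1 (-1.40) each had an adjusted p of 0.0522. With 1 pool per group, these tests cover array noise only.

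Over both treatments, on the 4 pools, 2 of 3 members were lower in TNFR KO hosts, Cxcl2 at -3.46 ± 0.33 (adjusted p = 0.000241) and Cxcl3 at -3.10 ± 0.36 (adjusted p = 0.000317). They ranked 3rd and 7th from the lowest of 11345 genes, of which 18.9% were called lower and 30.9% either way (1364 higher and 2140 lower, or 519 and 2075 with median-centred arrays). Both calls needed the filter on dim probe sets: without it limma called 0 genes in this comparison, and the adjusted p was 0.0622 for Cxcl2 and 0.0628 for Cxcl3. Radiation over both hosts called 0 of 3 members, with 2 at an unadjusted p under 0.05 and all 3 called by limma's trend fit, against 1.9% of tested genes called either way (176 higher and 40 lower, or 155 and 151 with median-centred arrays). The differences there were 0.93 ± 0.33 for Cxcl2, 1.40 ± 0.36 for Cxcl3 and 0.59 ± 0.27 for Cxcl1, and their error holds the gap between the 2 hosts.

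**Figure D3:**
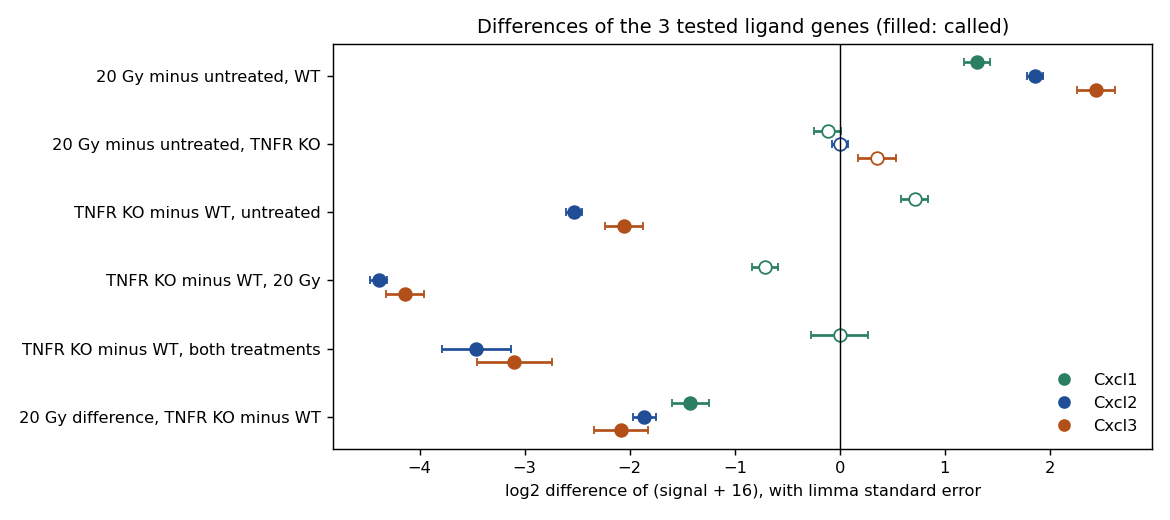
Log2 difference (horizontal axis) of the 3 tested members in each comparison, with bars of 1 SE and filled points for those called. In WT hosts the radiation differences lie at 1.30, 1.86 and 2.44, in TNFR KO hosts at -0.12, 0.00 and 0.36.

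The pattern over the 4 pools set Cxcl1 apart from its 2 neighbours. Likeness was measured as the root mean square distance between centred log2 profiles over the 4 pool means, where 0 is identical. Cxcl2 and Cxcl3 were 0.30 apart, whereas Cxcl1 was 1.74 from Cxcl2 and 1.61 from Cxcl3. The 3 genes nearest to Cxcl2 were Ccl3 (0.18), a chemokine of the CC family, Acod1 (0.27), which makes itaconate in activated macrophages, and S100a9 (0.30), a calcium-binding protein abundant in neutrophils. Acod1 read 145 and 520 in the WT untreated and irradiated pools, and 23.1 and 7 in the TNFR KO ones. It thus passed the filter through the WT pools alone, and its distance depends on the pseudocount. The 3 nearest to Cxcl3 were S100a8 (0.13), the partner of S100a9, S100a9 itself (0.23) and Cxcl2. Nearest to Cxcl1 were Fcgr4 (0.03), an activating Fc receptor of neutrophils and monocytes, Ncf4 (0.07), a subunit of the phagocyte NADPH oxidase, and Tgm2 (0.08), tissue transglutaminase. The distances of Cxcl1 are those of its brightest probe set, 1441855_x_at, and its 2 other probe sets were not compared in this way. With 4 points, such distances describe these pools and carry no test.

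The 2 kinds of neighbour show the difference plainly. S100a8 read 2180 in WT untreated, 13868 in WT irradiated, 503 in TNFR KO untreated and 596 in TNFR KO irradiated tumours, and Ccl3 read 548, 2077, 117 and 81.7. Fcgr4 read 152, 389, 244 and 239 in the same order, so that, as for Cxcl1, the TNFR KO pools lay between the WT pools. Of the 7 neighbours, 5 had a promoter window and 1, Fcgr4, held a match to the NF-kB consensus.

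The 10 shared bases GGGAATTTCC were found in the promoter windows of 11 of the 9238 tested genes with a window (0.119%). These were Cep112, Csad, Cxcl1, Cxcl2, Cxcl3, Il16, Map3k7, Nfkbia, Trio, Tufm and Zfp84. Cep112, Csad, Il16, Map3k7, Trio, Tufm and Zfp84 were not called after radiation in either host. In WT hosts 4 of the 11 were called higher, against 2.25% of all tested genes. These were the 3 members, from whose promoters the bases were taken, and Nfkbia, the NF-kB inhibitor and a classical target of that factor. Because the bases came from the members, their calls are no result about the sequence. Nfkbia read 4758 in WT untreated and 10694 in WT irradiated tumours (1.17 ± 0.08, adjusted p = 0.000714), and 8876 and 6361 in TNFR KO tumours. It thus had, like Cxcl1, a higher signal in TNFR KO than in WT tumours before radiation (0.90, adjusted p = 0.000345, below 2-fold). In WT tumours its call was lost with median-centred arrays (0.91).

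Beyond the members, 60 genes of the pathway were listed in 5 groups, of which 38 were tested. Radiation in WT hosts called 12 of the 38 higher and 0 lower (median 0.39, against -0.02 over all tested genes), and in TNFR KO hosts 0 higher and 2 lower (median -0.06). Of all tested genes, 2.25% were higher and 0.203% lower in WT hosts, and 0.881% and 0.485% in TNFR KO hosts. The difference between the radiation effects was called for 10 of 38, all lower in TNFR KO (median -0.48 against -0.01), where 2.05% of all tested genes were. Without radiation 2 were higher and 1 lower in TNFR KO hosts, where 2.06% and 6.25% of all tested genes were, and after it 0 and 6, where 0.793% and 7.43% were. Over both treatments 5 of 38 were higher and 7 lower, close to the 12% and 18.9% of all tested genes, so the counts over both treatments are no result about the pathway. Of the 12 calls in WT hosts, 7 fell under 2-fold with median-centred arrays, and leaving out 1 array kept between 8 and 12 of them. Of the 10 calls on the difference between hosts, 6 stayed at 2-fold or more with median-centred arrays, Nfkbiz and Cebpb being among the 4 that did not, and leaving out 1 array kept 6 to 8.

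Among 7 tested genes for inducers of CXCR2 ligands, 1 was called after radiation, in WT hosts, where 2.25% of all tested genes were higher. It was Il1b, which encodes interleukin-1 beta. Its signal was 535 ± 79.5 in WT untreated, 2312 ± 11.5 in WT irradiated, 273 ± 0.778 in TNFR KO untreated and 246 ± 6.58 in TNFR KO irradiated tumours. It rose by 2.09 ± 0.10 in WT hosts (adjusted p = 0.000319) and was lower in TNFR KO than in WT irradiated tumours (-3.15, adjusted p = 5.61e-05). The radiation effects of the hosts differed by -2.23 (adjusted p = 0.002). Tnf itself was below the tested level, at 16.2, 22.6, 14.0 and 13.9 in the 4 pools, as were Il1a, Il6, Il17a, Csf2, Lta and Map3k8. Over both treatments Il1b was lower in TNFR KO hosts (-2.04, adjusted p = 0.00307), as 18.9% of all tested genes were, and that call was lost without the second WT untreated array (adjusted p = 0.0564).

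In irradiated TNFR KO tumours 0 of 11 tested genes for transcription and mRNA stability of the ligands rose, against 0.881% of all tested genes. In irradiated WT tumours 4 of the 11 rose, against 2.25% of all tested genes. They were Cebpb (1.5 ± 0.08, adjusted p = 0.000386), a transcription factor of inflammatory genes, Nfkbiz (1.24 ± 0.09, adjusted p = 0.0012), a nuclear cofactor of NF-kB, Nfkbia, and Zfp36 (1.00 ± 0.09, adjusted p = 0.00174). Zfp36 encodes tristetraprolin, which shortens the life of AU-rich transcripts, and its call was lost without the second WT untreated or the second WT irradiated array. The radiation effects of the hosts differed for Nfkbia (-1.65, adjusted p = 0.00202), Nfkbiz (-1.19, adjusted p = 0.00921) and Cebpb (-1.19, adjusted p = 0.0053).

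Of the 3 tested genes among the other ELR and platelet chemokines and their receptors, 1 was called. It was Ppbp, the precursor of platelet basic protein, which rose in WT hosts (1.19 ± 0.14, adjusted p = 0.00383), as 2.25% of all tested genes did. Its signals were 101.5, 250, 152 and 223. The other CXCR2-side group, signalling molecules downstream of the receptor, had 9 tested genes. Rac2 was its 1 call after radiation in WT hosts (1.16, adjusted p = 0.0191), where 2.25% of all tested genes were higher. The call was lost without each of the 4 WT arrays in turn and with the mean of the probe sets of Rac2 (0.74).

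Other neutrophil attractants, survival factors and their receptors moved most often. Of the 8 tested, 5 were higher after radiation in WT hosts, where 2.25% of all tested genes were. Ccl3 (1.89 ± 0.13, adjusted p = 0.000853) and Alox5ap (1.24, adjusted p = 0.00138), which serves leukotriene synthesis, held that call with any 1 array left out. Csf2rb (1.10, adjusted p = 0.00318) lost it without the first WT untreated array, and Fpr2 (1.43, adjusted p = 0.024) and Csf3r (1.36, adjusted p = 0.0433) without 4 and 6 of the 8 arrays in turn. In TNFR KO hosts Cxcl12 and its receptor Cxcr4, which retain neutrophils in the marrow, were higher without radiation (1.39, adjusted p = 0.0089, and 1.37, adjusted p = 0.00105). Ccl3 was lower in TNFR KO hosts without radiation (-2.10, adjusted p = 0.000178) and after it (-4.42, adjusted p = 4.59e-05). Cxcl12 and Fpr2 were lower after radiation in TNFR KO hosts (-1.11 and -1.25), calls that 7 of the 8 left-out arrays ended.

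**Figure D4:**
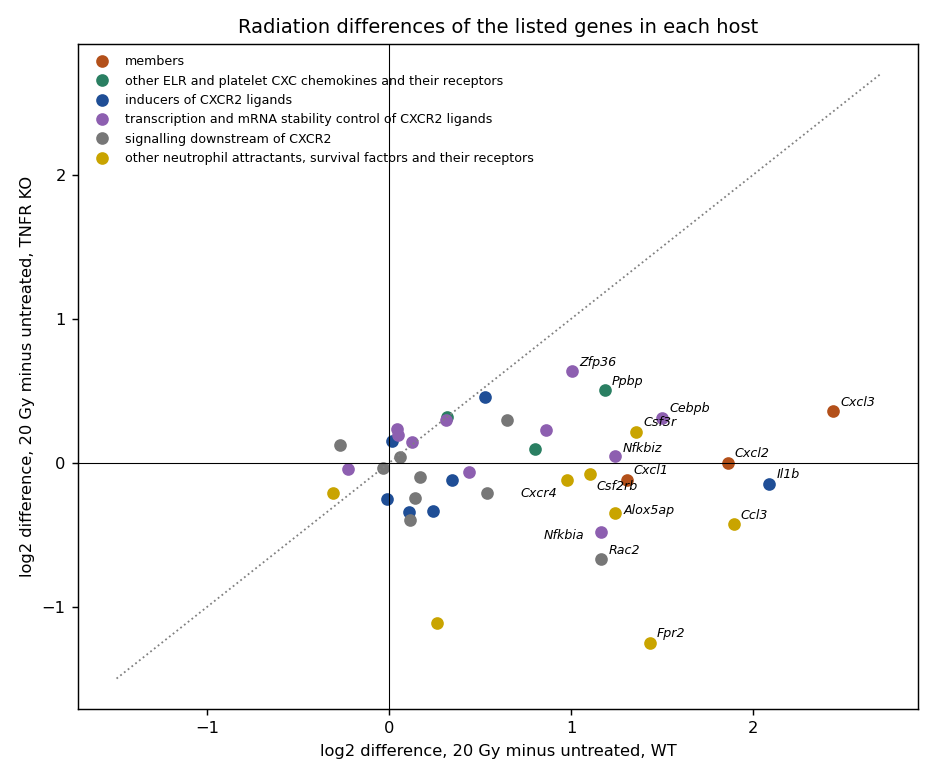
Log2 difference after radiation in WT hosts (horizontal axis) and in TNFR KO hosts (vertical axis) for the tested members and pathway genes, with equality as a dotted line. Cxcl1, Cxcl2 and Cxcl3 lie to the right of the line at 1.30, 1.86 and 2.44 in WT hosts, near 0 in TNFR KO hosts.

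Markers of several other cell types also differed between the pools, and not all in the pattern of the ligands. In bulk tumour RNA, a change in how many cells of a type are present cannot be told apart from a change in RNA per cell. The 13 neutrophil markers on the array had a summed signal of 4372 to 4655 in WT untreated, 24913 to 25788 in WT irradiated, 1670 to 1822 in TNFR KO untreated and 1885 to 2036 in TNFR KO irradiated tumours, most of it from S100a8 and S100a9. Of 8 tested neutrophil markers, 6 were higher after radiation in WT hosts and 0 in TNFR KO hosts, against 2.25% and 0.881% of all tested genes. Csf3r is 1 of these 6 and was also counted above among the attractants and their receptors. Between hosts 2 were lower in TNFR KO untreated, 5 irradiated and 5 over both treatments, against 6.25%, 7.43% and 18.9% of all tested genes. Over both treatments the calls of Csf3r and Mmp8 were lost with any 1 array left out, and that of Il1r2 with 4 of the 8 arrays. The listed markers Mpo, Elane, Camp, Ltf and Cd177 were below the tested level. The granule genes Ngp and Mmp8 were tested. In WT hosts Ngp was called higher after radiation (1.25, adjusted p = 0.00353), and Mmp8 stayed below 2-fold (0.86, adjusted p = 0.0171). The part of neutrophil RNA in the ligand results was not tested.

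The sum of 10 macrophage markers was 4497 to 4637 in WT untreated, 8865 to 9176 in WT irradiated, 8923 to 9217 in TNFR KO untreated and 5877 to 6052 in TNFR KO irradiated tumours. TNFR KO untreated tumours thus lay above WT untreated ones, as for Cxcl1, but, unlike Cxcl1, they overlapped the WT irradiated pool. Of 7 tested macrophage markers, 2 were higher in untreated TNFR KO hosts, against 2.06% of all tested genes. These were Csf1r (by 1.60) and Cd68 (by 1.02), the latter call lost without the first TNFR KO or the second WT untreated array. In WT hosts 1 rose after radiation (Cd14, by 2.43), against 2.25% of all tested genes. The radiation effect was lower in TNFR KO than in WT hosts for 6, against 2.05% of all tested genes. Of these 6 calls, that of Mrc1 was lost with any 1 array left out and that of Itgam with 7 of the 8. Other stromal lists also differed between untreated hosts: 5 of 7 fibroblast, 3 of 7 endothelial, 5 of 5 keratinocyte and 1 of 2 T cell markers were higher in TNFR KO tumours, and 2 of 5 skeletal muscle markers were lower, where 2.06% of all tested genes were higher and 6.25% lower. The T cell marker called was Thy1, which is also 1 of the 5 fibroblast markers. Cd8a, the other tested T cell marker, was not called (0.16, adjusted p = 0.567), so the T cell count is no separate result. The keratinocyte marker Krt6b, at 960 and 1030 in TNFR KO untreated tumours and 8 to 74.4 elsewhere, was bright enough to be tested through that group alone. Skeletal muscle markers fell after radiation in both hosts, 3 of 5 in each, where 0.203% (WT) and 0.485% (TNFR KO) of all tested genes fell. Over both treatments 5 of 5 were lower in TNFR KO hosts, where 18.9% of all tested genes were. Their summed signal was 2848 to 2930 in WT untreated, 775 to 939 in WT irradiated, 1074 to 1194 in TNFR KO untreated and 428 to 470 in TNFR KO irradiated tumours. Erythroid genes rose after radiation in 1 of 2 (WT) and 2 of 2 (TNFR KO), where 2.25% and 0.881% of all tested genes rose. In WT hosts 1 of 3 platelet markers rose, which was Ppbp, already counted above among the chemokines. Of mast cell markers, 0 of 1 rose in either host. The part of these cell types in the chemokine results was not tested.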

How the data were processed

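Whole-tumour RNA pools of 4 groups were measured on 2 Affymetrix arrays each. Per the submitters' processing notes, the authors used MAS5 (version not given in the sources used here), and the deposited values are signal intensity on a linear scale. Signals were analysed as log2(signal + 16), where log2 values were computed here from the deposited intensity. The supplied annotation named 1 gene for 34945 probe sets, several for 932 and none for 9160, with 64 controls, and 34741 of the first matched a RefSeq gene by identifier. Fits used limma 3.58.1 in R 4.3.3: pool means for additive host and radiation effects (1 residual degree of freedom), and a model of 4 group means over the 8 arrays for the rest (4 residual degrees of freedom), two-sided, with p-values adjusted over all 11345 genes. Scripts were tested on simulated data. The members, the 5 pathway lists, the 11 marker lists and the tests were chosen with earlier results of these data known. Genes named from each list were up to 4 called ones, with others named after their values were seen, plus the 3 nearest profiles per tested member. Pathway genes that were not matched included Cxcr1, Il17f, Nfkb1, Grk2, Lyn and Fpr1. Duplicates had correlated deviations of only -0.03 to 0.05 between pools, so replicate numbers do not pair arrays. Alternatives changed the normalization, pseudocount, filter, probe-set rule, fit, fold threshold and replicate block, or left out each array in turn. Precision is limited by having 2 arrays per pool and 1 pool per group.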

Additional observations from a re-analysis of the deposited data

Results flagged for a closer look

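The response of the 3 tested ligand genes to radiation differed between hosts, by the test of the difference itself on duplicate arrays. The radiation effect in TNFR KO minus that in WT hosts was -1.42 for Cxcl1, -1.86 for Cxcl2 and -2.08 for Cxcl3 on the log2 scale. No group had enough arrays to look for a sample far from the others.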

How the results depend on the processing

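Results were recomputed under 21 other settings, 8 of which left out 1 array and then took the spread of the lone array from the other groups. Of 407 member values, 367 were counted as unchanged. Under the settings this meant the same direction and side of the threshold, and at the other probe sets of Cxcl1 a value within 1 SE. The difference between radiation effects was called for 1 of 3 members at a 4-fold threshold and for 1 to 3 with an array left out. Radiation in WT hosts called 1 member at 4-fold. The irradiated hosts differed in 4 members without a filter, and host over both treatments in 0. Radiation over both hosts, called for 0 members, was called for 2 with median-centred arrays, 2 with a pseudocount of 64, 3 with a filter at the 75th percentile, 1 with the mean of probe sets, 3 with limma's trend fit and 1 with 8 arrays and no block. Near-zero differences turned sign: Cxcl1 between hosts over both treatments was -0.076 with median-centred arrays, -0.01 with a pseudocount of 64 and -0.084 to 0.086 with an array left out (at its other probe sets -0.297 and 0.518), Cxcl1 after radiation in TNFR KO hosts was 0.109 at 1 of them, and Cxcl2 after radiation in TNFR KO hosts was 0.06 with quantile normalization and -0.063 to 0.062 with an array left out. With the replicate block the members called stayed at 3 for radiation in WT, 0 in TNFR KO, 2 and 2 between hosts and 3 for the difference, where the adjusted p was 0.00852 for Cxcl2, 0.0225 for Cxcl3 and 0.0125 for Cxcl1. Over all genes, host over both treatments ranged from 0 calls (no filter) to 6446 (8 arrays, no block; 6106 with the replicate block) against 3504, radiation over both hosts from 0 to 2471 against 216, radiation in WT from 16 (4-fold) to 877 (1.5-fold) against 278, in TNFR KO from 23 to 760 against 155, host untreated from 27 to 2730 against 943, host irradiated from 51 to 2942 against 933, and the difference between radiation effects from 29 to 647 against 251. Median centring shifted the median of all genes by radiation in WT to -0.28, by radiation over both hosts to -0.16, between untreated hosts to -0.11 and for the difference between radiation effects to 0.22, from -0.02, -0.02, 0.08 and -0.01. Of 77 called values of listed genes, 42 held with any 1 array left out. The cause of these changes was not tested.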
